A study of Homo sapiens with 12 samples.

Results

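The genes described here encode 10 cell surface antigens, or the enzyme that makes one, that are used to tell apart or to sort naive and primed human pluripotent stem cells. They are THY1, CD24, SUSD2, PODXL, B3GAT1, ALPL, ALPP, ALPPL2, PROM1 and SLC34A2, chosen by symbol from 23615 gene symbols in the deposited tables, and every one of them was listed in every library. Poly(A) RNA was sequenced from manually picked colonies of H9 and RUES-2, both established human embryonic stem cell lines, to compare gene expression between the naive and the primed state. There were 4 groups, naive H9, primed H9, naive RUES-2 and primed RUES-2, with 3 libraries each. The submitters call the 3 libraries of a group biological replicates, but nothing says whether they came from separate cultures, and p-values therefore measure the spread between libraries, which may be partly technical. Naive cells, at passages 27 to 31 in H9 and 24 to 26 in RUES-2, grew in medium with 5 mM glucose, 20 ng/mL of the cytokine LIF, 18 µg/mL insulin, and the inhibitors PD0325901 (of MEK, 1 µM) and CHIR99021 (of GSK3, 3 µM). Primed cells, at passages 31 to 35 in H9 and 30 to 33 in RUES-2, grew on mouse embryonic fibroblasts arrested with mitomycin C, with 20% knockout serum replacement and 4 ng/mL bFGF. No genetic modification is labelled in any group. The title of the series concerns a transient inhibition of mTOR, yet no sample label names an inhibitor of mTOR.

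Naive cells resemble the epiblast before implantation and primed cells the epiblast after it, and antibodies against surface antigens are the usual way to separate both kinds of living cells in a flow cytometer. THY1 and CD24 are small proteins held in the membrane by a glycosylphosphatidylinositol (GPI) anchor and are used as antigens of primed cells, as is the HNK-1 sugar epitope (CD57), which the Golgi enzyme B3GAT1 helps to build. SUSD2, ALPPL2 and SLC34A2 are used as antigens of naive cells, whereas PODXL, ALPL and PROM1 are known from pluripotent cells more broadly. The data here are transcript levels, and no surface protein was measured.

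The unit is FPKM, a fragment count divided by transcript length and by the mapped fragments of the library, as deposited. The tables hold no read counts, so the depth behind a value is not known beyond the confidence bounds that the authors deposited with it, with no stated level. Between 12681 and 13593 genes per library reached 1 FPKM. A single short RNA gene, MIR4461, took 16.8% to 33.1% of the summed FPKM of a library. When genes that differ between cell lines by genotype were compared, 3 of the 12 libraries stood apart from the rest of their line label, and 0 of these were labelled H9. That split runs along the state label, so within the RUES-2 label the state and the source of the cells cannot be told apart, and "RUES-2" below means as labelled. The state difference in H9 does not use these 3 libraries except for the shared estimate of the spread, and without them the same number of antigen genes, 9, was called. Of 9 pluripotent cell markers 0 were higher and 5 lower in naive H9, and DPPA4 averaged 104 ± 5.12 FPKM in naive H9 and 242 ± 39.8 FPKM in primed H9. In naive RUES-2 8 were lower and 1, NANOG, was higher. Beside these counts, 20.4% of all genes tested were higher and 23.9% lower in naive H9, and 23.1% were higher and 23.7% lower in naive RUES-2. NANOG averaged 300 FPKM in naive RUES-2 and 50.8 FPKM in primed RUES-2, against 43.9 FPKM in naive H9 and 77.7 FPKM in primed H9. Of 12 naive state markers 9 could be tested, and 6 were higher in naive H9 with 0 lower. In RUES-2 3 were higher and 0 lower, and the same shares of all genes stand beside these counts. Of the 6, KHDC3L reached 1 FPKM in 3 libraries only, those of naive H9, and KLF2 in 6 libraries, none of them primed H9. Both so entered the test through groups in which they were high. Others of the list did not follow: DPPA5 averaged 0.34 FPKM in naive H9 and 0.793 FPKM in primed H9, and 1.25 FPKM in naive RUES-2 and 1.75 FPKM in primed RUES-2, without passing the test, and TFCP2L1 and KLF17 were too low to be tested, the highest group mean being 0.922 FPKM for TFCP2L1 and 0.104 FPKM for KLF17.

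In H9, transcripts of 4 antigens were higher in the naive state (SUSD2, ALPP, ALPPL2 and SLC34A2) and those of 5 were lower (THY1, CD24, B3GAT1, ALPL and PROM1). PODXL did not pass the test. The test was limma on log2(FPKM + 1) with Benjamini-Hochberg adjustment over the 14429 genes that reached 1 FPKM in 3 libraries or more, and a gene was called at an adjusted p under 0.05. With this test 44.3% of all genes tested were called in H9, 20.4% as higher and 23.9% as lower, and the calls of the antigen genes are read beside this background. The median absolute log2 difference was 1.04 over the 10 antigen genes and 0.31 over all genes tested. In RUES-2, 1 antigen gene was higher (SUSD2) and 6 were lower (THY1, CD24, PODXL, B3GAT1, ALPL and PROM1), beside 46.8% of all genes called, 23.1% as higher and 23.7% as lower. There the median absolute log2 difference was 1.12 over the antigen genes and 0.33 over all genes. The antigen genes were chosen with earlier results of these data known, so these medians are a description and not a test of the set. The naive libraries lay above all primed libraries for 4 antigen genes and below them for 5 in H9, where 57.3% of all genes did not overlap between states, 27% above and 30.3% below. In RUES-2 they lay above for 1 and below for 6, where 57.3% of all genes did not overlap, 29% above and 28.3% below. All 10 antigen genes passed the filter, but ALPP and SLC34A2 reached 1 FPKM in only 3 libraries, those of naive H9, and so entered the test through the group in which they were high. B3GAT1 likewise reached 1 FPKM in 6 libraries only, all primed.

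**Figure D1:**
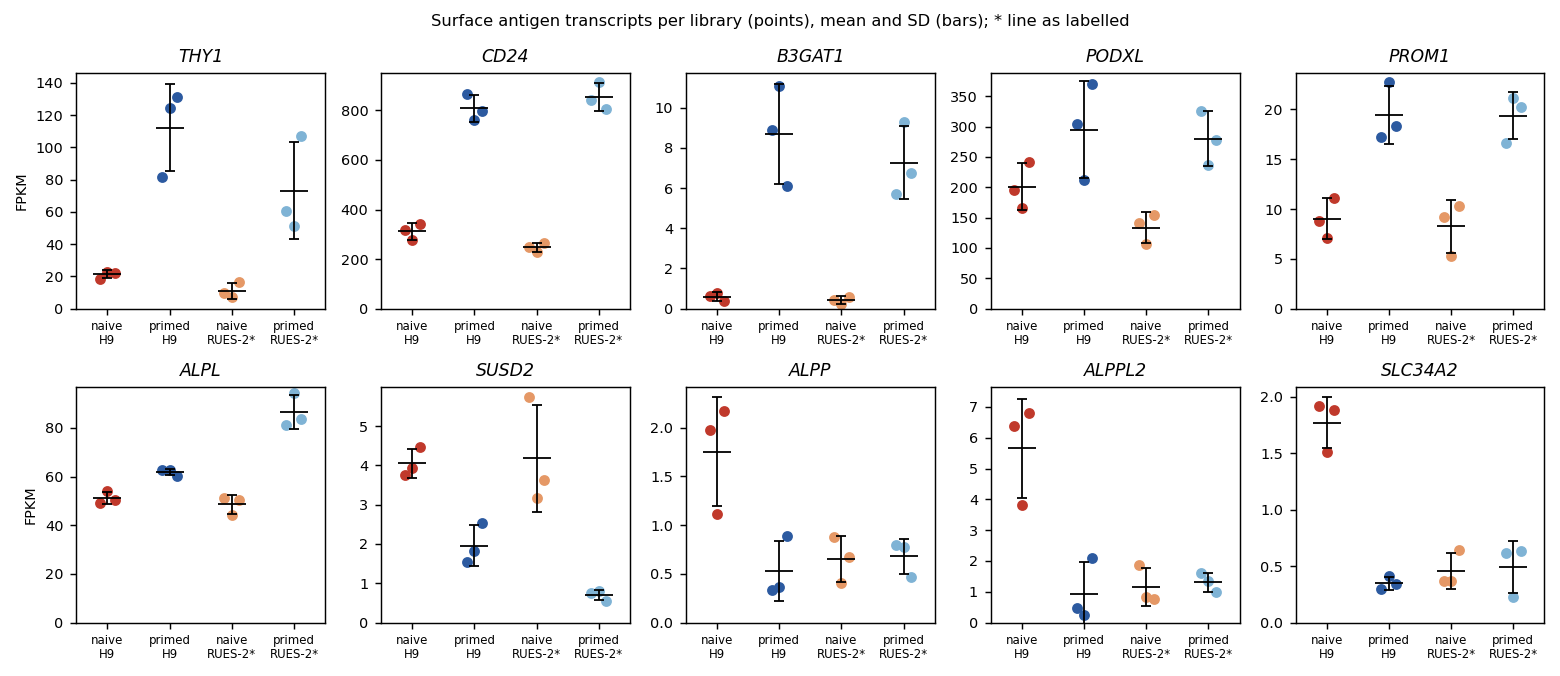
FPKM of each of the 10 antigen genes (y axes, linear, from 0) in the 12 libraries (points), with the mean (long bar) and SD (short bars) of each group of 3, where the asterisk marks line names as labelled. The genes of the upper row and ALPL have lower means in the naive groups, SUSD2 is higher in both naive groups, and ALPP, ALPPL2 and SLC34A2 stand high in naive H9 with means of 1.75, 5.66 and 1.77 FPKM.

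**Figure D2:**
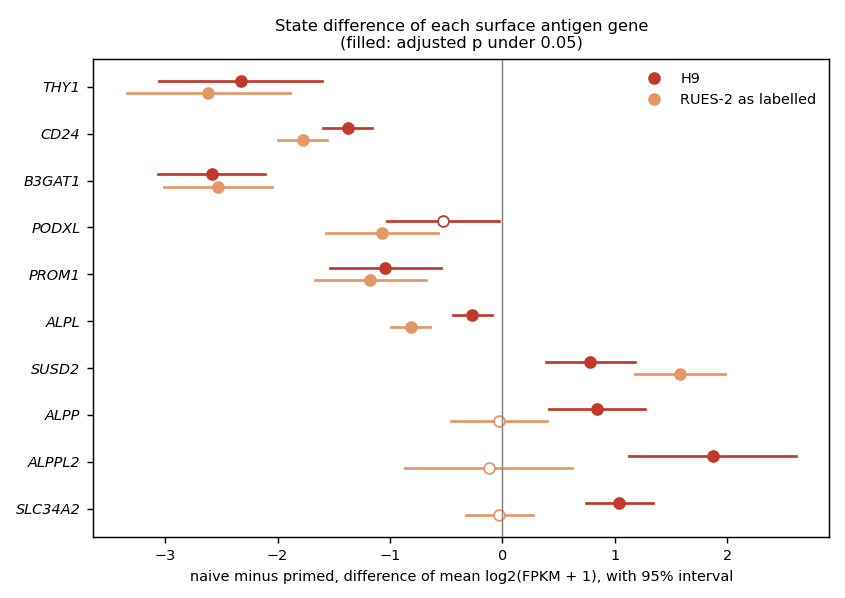
Difference of mean log2(FPKM + 1), naive minus primed (x axis), with its 95% interval from limma for each antigen gene in H9 and in the libraries labelled RUES-2; filled points have an adjusted p under 0.05. The intervals of ALPPL2 do not meet between the lines (-0.86 to 0.62 in RUES-2 and 1.13 to 2.61 in H9), nor do those of SLC34A2, ALPL and ALPP, and those of SUSD2 border each other at 1.18.

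Transcripts of the 3 primed antigens THY1, CD24 and B3GAT1 were lower in the naive state of both lines, and the ratio of mean FPKM between the states was largest for B3GAT1. THY1, a GPI-anchored member of the immunoglobulin family also known as CD90, is listed at chromosome 11, 119288655 to 119294246 of hg19. It measured 18.3, 23.0 and 22.2 FPKM in the naive H9 libraries, against 81.4, 124 and 131 FPKM in the primed H9 libraries. It measured 9.83, 6.91 and 16.6 FPKM in naive RUES-2, against 60.7, 51.1 and 107 FPKM in primed RUES-2. The naive and primed libraries did not overlap in either line, whereas the ranges of the primed groups overlapped each other. The log2 difference was -2.33 in H9 (SE 0.33, adjusted p = 0.000306) and -2.62 in RUES-2 (SE 0.33, adjusted p = 0.000137), and mean FPKM in the primed group was 5.30 times that of the naive group in H9 and 6.58 times in RUES-2. In these bulk samples fewer cells that express a gene and less RNA per cell cannot be told apart, here and for every gene below.

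THY1 is also an antigen of fibroblasts, and most of the fibroblast markers tested moved the opposite way. Of 12 listed markers 11 could be tested, and 8 of them were higher and 0 lower in the naive state, in H9 and in RUES-2 alike. DCN and POSTN, called higher in both lines, reached 1 FPKM in 6 libraries only, none of them primed H9. They so entered the test through groups in which they were high. Over all genes 20.4% were higher in H9 and 23.1% in RUES-2. The summed level of the listed markers ran from 336 to 522 FPKM in naive H9 libraries and from 39.9 to 110.1 FPKM in primed H9 libraries. In RUES-2 the sum ran from 197 to 1069 FPKM in naive libraries and from 30.5 to 63.0 FPKM in primed libraries. TWIST2 had its higher means in the primed state, as THY1 did, with a mean of 1.02 FPKM in naive H9 against 1.13 to 40.4 FPKM over the primed H9 libraries, and means of 2.11 FPKM in naive RUES-2 and 6.31 FPKM in primed RUES-2. It missed the threshold in H9 (adjusted p = 0.0594) and in RUES-2 (0.267). FAP was at 0 in both primed groups and averaged 0.161 FPKM in naive H9 and 0.594 FPKM in naive RUES-2. The part of these markers in the THY1 values was not tested.

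CD24, a short and heavily glycosylated GPI-anchored protein, had the highest mean FPKM of the 10 genes in every group. It measured 317, 276 and 343 FPKM in naive H9, against 868, 762 and 798 FPKM in primed H9. It measured 248, 230 and 267 FPKM in naive RUES-2, against 841, 916 and 805 FPKM in primed RUES-2. Every naive library lay below every primed library. It was lower by a log2 difference of -1.38 in H9 (SE 0.10, adjusted p = 4.51e-06) and -1.78 in RUES-2 (SE 0.10, adjusted p = 1.06e-06). Even in the naive groups the mean CD24 level stood above that of 98.4% of all gene symbols or more. The hg19 tables list CD24 at a copy on chromosome Y (21152526 to 21154705), while RefSeq of GRCh38.p14 places the gene on chromosome 6. Of its 50-base windows 6.90% occur in transcripts of other genes, so its absolute level is uncertain. The same holds for THY1, of whose windows 15.4% occur in transcripts of 1 other gene.

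B3GAT1, the glucuronyltransferase of the HNK-1 epitope (chromosome 11, 134248398 to 134281812), had the largest fold between the states. It measured 0.625, 0.785 and 0.355 FPKM in naive H9, against 8.91, 11.1 and 6.13 FPKM in primed H9. It measured 0.446, 0.210 and 0.593 FPKM in naive RUES-2, against 5.73, 9.27 and 6.77 FPKM in primed RUES-2. No naive library reached 1 FPKM and no primed library fell under 5.73 FPKM. On the log2(FPKM + 1) scale the difference was -2.59 in H9 (SE 0.21, adjusted p = 1.12e-05) and -2.53 in RUES-2 (SE 0.21, adjusted p = 1.25e-05). On the linear scale the primed mean was 14.8 times the naive mean in H9 and 17.4 times in RUES-2. The calls of THY1, CD24 and B3GAT1 in both lines held under every alternative processing that tested them. Leaving out the libraries that did not match their line label gave no value for RUES-2, so the RUES-2 calls were not checked in that way. B3GAT1, CD24 and THY1 are also 3 of the 9 primed state markers, of which 7 were lower and 0 higher in each line. Over all genes 23.9% were lower in H9 and 23.7% in RUES-2.

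The HNK-1 epitope needs a glucuronyltransferase, B3GAT1 or its relative B3GAT2, and the sulfotransferase CHST10. B3GAT2 averaged 1.29 ± 0.0365 FPKM in naive H9 and 2.49 ± 0.265 FPKM in primed H9 (log2 difference -0.60, adjusted p = 0.00207). In RUES-2 it averaged 2.74 ± 0.579 FPKM in naive and 1.91 ± 0.130 FPKM in primed libraries (0.35, adjusted p = 0.0296), so B3GAT2 differed in opposite directions in the lines, and the difference between the lines was itself called (0.95, adjusted p = 0.00992). CHST10 did not pass the test in either line. B3GAT3, which acts on the linkage sugars of proteoglycans, was higher in the naive state, with a log2 difference of 0.56 in H9 (adjusted p = 0.00619) and 0.73 in RUES-2 (adjusted p = 0.0013).

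PODXL and PROM1, membrane glycoproteins of pluripotent and other stem or epithelial cells, differed by less between the states. PODXL is a sialomucin that carries keratan sulfate epitopes of pluripotent cells, listed at chromosome 7, 131185021 to 131241376. It measured 195, 166 and 242 FPKM in naive H9, against 304, 212 and 369 FPKM in primed H9. In RUES-2 it measured 141, 106 and 154 FPKM in naive libraries, against 326, 237 and 278 FPKM in primed libraries. The states overlapped in H9, where 1 primed library lay below the highest naive library, and did not overlap in RUES-2. PODXL differed by -0.53 on the log2 scale in H9 and missed the threshold (SE 0.22, 95% interval -1.03 to -0.03, adjusted p = 0.0779), and by -1.07 in RUES-2 (SE 0.22, adjusted p = 0.00306). Without primed H9 replicate 2 the H9 difference was -0.75 and was called (adjusted p = 0.0156). The difference of the state change between the lines did not pass the test (-0.54, adjusted p = 0.372).

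PROM1 (CD133), a protein with several membrane passes that sits on membrane protrusions, is listed at chromosome 4, 15969849 to 16085623. It measured 8.80, 7.06 and 11.2 FPKM in naive H9, against 17.3, 22.8 and 18.3 FPKM in primed H9. It measured 9.24, 5.27 and 10.3 FPKM in naive RUES-2, against 16.7, 21.1 and 20.3 FPKM in primed RUES-2. The ranges of the lines overlapped within each state, and the states did not overlap. The log2 difference was -1.04 in H9 (SE 0.22, adjusted p = 0.00377) and -1.17 in RUES-2 (SE 0.22, adjusted p = 0.00173). The relatives PODXL2 and PROM2 were also lower in naive H9. PODXL2 averaged 5.64 ± 0.366 FPKM in naive H9 and 18.2 ± 3.00 FPKM in primed H9 (-1.52, adjusted p = 0.000616), but 31.3 ± 14.3 FPKM in naive RUES-2 and 15.4 ± 1.14 FPKM in primed RUES-2 (0.89, adjusted p = 0.0112), and the difference between the lines was called (2.41, adjusted p = 0.00403). PROM2 was lower in the naive state of both lines, with a log2 difference of -0.45 in H9 (adjusted p = 0.0145) and -1.08 in RUES-2 (adjusted p = 8.9e-05). PODXL is tied to the cytoskeleton through EZR and the adaptors SLC9A3R1 and SLC9A3R2, and of 7 such partners and sheddases 2 were higher and 2 lower in each line. Over all genes 44.3% were called in H9 and 46.8% in RUES-2. SLC9A3R2 averaged 0.995 ± 0.203 FPKM in naive H9 and 3.17 ± 0.369 FPKM in primed H9, against 9.04 ± 4.36 FPKM in naive RUES-2 and 2.55 ± 0.443 FPKM in primed RUES-2. MSN (0.65, adjusted p = 0.00281) and EZR (0.45, 0.0422) were higher in naive H9.

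The 3 alkaline phosphatases differed from each other. All are GPI-anchored enzymes whose activity is a classic stain of pluripotent colonies: ALPL is the tissue-nonspecific form, ALPP the placental form and ALPPL2 the germ cell form. ALPL was the bulk of their transcripts in every library. In naive H9 it made up 84.9% to 91.6% of the summed FPKM of the 3 genes, against 95.3% to 99.0% in primed H9. In RUES-2 its share was 94.9% to 97.3% in naive and 97.1% to 98.3% in primed libraries.

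ALPL is listed at chromosome 1, 21835858 to 21904905. It measured 49.3, 54.0 and 50.5 FPKM in naive H9, against 62.7, 62.8 and 60.4 FPKM in primed H9. In RUES-2 it measured 51.4, 44.1 and 50.5 FPKM in naive libraries, against 81.1, 94.2 and 83.8 FPKM in primed libraries. Naive and primed libraries did not overlap in either line, although the H9 difference was small. ALPL differed by -0.27 on the log2 scale in H9 (SE 0.08, adjusted p = 0.0183), a call that ended without naive H9 replicate 1 (adjusted p = 0.0695), naive H9 replicate 3 (0.056) or primed H9 replicate 1 (0.0502). In RUES-2 it differed by -0.82 (SE 0.08, adjusted p = 2.77e-05). The difference between the lines was called (-0.55, SE 0.11, adjusted p = 0.02, but 0.0571 without naive H9 replicate 2), with the naive groups at 48.7 ± 3.94 FPKM in RUES-2 and 51.3 ± 2.44 FPKM in H9 and the primed groups at 86.4 ± 6.91 FPKM in RUES-2 and 61.9 ± 1.35 FPKM in H9.

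ALPP (chromosome 2, 233243348 to 233247599) and ALPPL2 (chromosome 2, 233271552 to 233275424, ALPG in current RefSeq) are neighbours and near-identical copies, so how reads were divided between them is uncertain. Their coding sequences are 97.3% identical, while each is 63.5% or less identical to ALPL. Of the 50-base windows of their transcripts, 32.4% of ALPP and 29.3% of ALPPL2 occur in other genes.

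ALPPL2 was high in naive H9 and low elsewhere. It measured 6.37, 3.82 and 6.80 FPKM in naive H9, against 0.472, 0.242 and 2.10 FPKM in primed H9. It measured 1.87, 0.827 and 0.775 FPKM in naive RUES-2, against 1.60, 1.34 and 0.978 FPKM in primed RUES-2. The states did not overlap in H9, also by the deposited bounds, and overlapped in RUES-2. Its log2 difference was 1.87 in H9 (SE 0.33, adjusted p = 0.00136) and -0.12 in RUES-2 (SE 0.33, 95% interval -0.86 to 0.62, adjusted p = 0.789). The primed H9 libraries were uneven, with replicate 3 far above the other two.

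ALPP followed at a lower level. It measured 1.97, 1.12 and 2.17 FPKM in naive H9, against 0.336, 0.364 and 0.886 FPKM in primed H9. It measured 0.882, 0.404 and 0.673 FPKM in naive RUES-2, against 0.798, 0.770 and 0.470 FPKM in primed RUES-2. The H9 libraries did not overlap between states, but their deposited bounds did. ALPP differed by 0.85 on the log2 scale in H9 (SE 0.19, adjusted p = 0.00533) and -0.03 in RUES-2 (SE 0.19, 95% interval -0.45 to 0.40, adjusted p = 0.922). When the values of ALPP and ALPPL2 were added, a choice made after seeing the data, the log2 difference was 1.86 in H9 (adjusted p = 0.00171) and -0.11 in RUES-2 (adjusted p = 0.816), so the H9 call held for the pair as a whole. ALPPL2 took 75.8% to 77.4% of the sum in naive H9 and 40.0% to 70.4% in primed H9. In RUES-2 its share was 53.5% to 67.9% in naive and 63.4% to 67.5% in primed libraries.

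ALPP is also the alkaline phosphatase of placental trophoblast. Of 12 listed trophoblast markers 5 could be tested, and in naive H9 CDX2 and HAND1 were higher and KRT7 lower. In naive RUES-2 CDX2, HAND1 and PGF were higher and GATA3 and KRT7 lower. Of all genes tested, 44.3% were called in H9 and 46.8% in RUES-2. The summed level of the listed markers was 25.1 to 88.6 FPKM in naive H9 and 4.83 to 13.1 FPKM in primed H9. HAND1, which is also a marker of mesoderm, averaged 41.9 FPKM in naive H9 and 1.64 FPKM in primed H9, and KRT7, the marker with the highest mean in primed H9, averaged 0.187 FPKM in naive H9 and 3.77 FPKM in primed H9. In RUES-2, where ALPP and ALPPL2 did not pass the test, the sum was 17.1 to 46.9 FPKM in naive and 10.2 to 19.9 FPKM in primed libraries. GATA3 averaged 0.591 FPKM in naive H9 and 0.331 FPKM in primed H9. In RUES-2 it averaged 0.304 FPKM in naive and 2.59 FPKM in primed libraries (log2 difference -1.38, adjusted p = 0.0022 in limma). CGA, CGB, GCM1, VGLL1 and TP63 had group means of 0.311 FPKM or less. The part of trophoblast cells in the ALPP and ALPPL2 values was not tested.

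The stretches upstream of ALPP and ALPPL2 are shown because their transcripts moved together in H9. They are the 250 bases before the RefSeq transcription start on GRCh38.p14, both on the plus strand (ALPP chr2:232378501-232378750, ALPPL2 chr2:232406594-232406843), with a TATA-like TTTAAA in capitals:
ALPP: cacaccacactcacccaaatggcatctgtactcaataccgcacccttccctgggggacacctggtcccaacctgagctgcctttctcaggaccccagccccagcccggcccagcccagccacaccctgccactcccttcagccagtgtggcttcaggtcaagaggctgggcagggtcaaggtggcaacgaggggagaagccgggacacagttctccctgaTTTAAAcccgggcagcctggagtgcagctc
ALPPL2: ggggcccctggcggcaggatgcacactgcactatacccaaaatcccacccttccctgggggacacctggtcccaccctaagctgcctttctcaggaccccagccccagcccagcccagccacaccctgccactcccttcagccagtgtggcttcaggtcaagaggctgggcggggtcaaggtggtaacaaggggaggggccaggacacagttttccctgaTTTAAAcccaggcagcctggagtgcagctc
The aligned stretches are 84.4% identical. TTTAAA, which reads the same on both strands, stands once in each, at the same place before the start, and 11.3% of 35116 RefSeq promoters of the same length hold it. On both strands the windows were also searched for TATAAA (in 10.7% of promoters), GGGCGG (42.6%), GCCNNNGGC (19.8%), TTCNNNGAA (6.57%) and CTTTGA (11.2%). ALPP held none of these, and ALPPL2 held GGGCGG and GCCNNNGGC once each. In the table of promoters 7 of the 10 antigen genes had entries, and THY1, SUSD2 and PODXL did not.

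SUSD2 was the 1 antigen gene that was higher in the naive state of both lines. It encodes a membrane protein with a sushi domain and is listed at chromosome 22, 24577444 to 24585074. SUSD2 measured 3.75, 3.93 and 4.48 FPKM in naive H9, against 1.54, 1.81 and 2.53 FPKM in primed H9. It measured 5.73, 3.18 and 3.64 FPKM in naive RUES-2, against 0.743, 0.804 and 0.548 FPKM in primed RUES-2. No naive library overlapped a primed library by value, and none did by deposited bounds within a line. Across the lines the bounds of naive RUES-2 replicate 2 (from 2.71 FPKM) met those of primed H9 replicate 3 (up to 2.97 FPKM). The log2 difference was 0.78 in H9 (SE 0.18, adjusted p = 0.00552) and 1.58 in RUES-2 (SE 0.18, adjusted p = 7.47e-05). On the linear scale the naive mean was 2.07 times the primed mean in H9 and 5.99 times in RUES-2. Its level stayed low, above that of 59.6% of gene symbols in naive H9 and of 58.7% in naive RUES-2.

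SLC34A2, a sodium-dependent phosphate transporter listed at chromosome 4, 25657435 to 25680368, stood higher in naive H9 than in the other groups. It measured 1.92, 1.51 and 1.88 FPKM in naive H9, against 0.295, 0.409 and 0.337 FPKM in primed H9. It measured 0.365, 0.366 and 0.642 FPKM in naive RUES-2, against 0.616, 0.224 and 0.636 FPKM in primed RUES-2. The naive H9 libraries lay above all 9 others, which overlapped each other. SLC34A2 differed by 1.04 on the log2 scale in H9 (SE 0.13, adjusted p = 0.000189) and -0.03 in RUES-2 (SE 0.13, 95% interval -0.32 to 0.27, adjusted p = 0.889). The summed level of 7 markers of the 8-cell stage, at which the embryo's own genome becomes active, was also highest there. It was 6.25 to 10.2 FPKM in naive H9 and 0.649 to 1.12 FPKM in primed H9, against 0.922 to 1.70 FPKM in naive RUES-2 and 0.703 to 0.781 FPKM in primed RUES-2. Of these 7 markers KHDC1L alone passed the filter, and only through its 3 naive H9 libraries, with a mean of 2.64 FPKM in naive H9 and 0.157 FPKM in primed H9. LEUTX and MBD3L2 averaged 0.894 and 1.73 FPKM in naive H9 and were at 0 in every other group. DUXA did not share this pattern, with 0.675 FPKM in naive H9 and 0.651 FPKM in primed H9, and 0.899 FPKM in naive RUES-2 and 0.637 FPKM in primed RUES-2. The part of such cells in the SLC34A2 values was not tested.

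**Figure D3:**
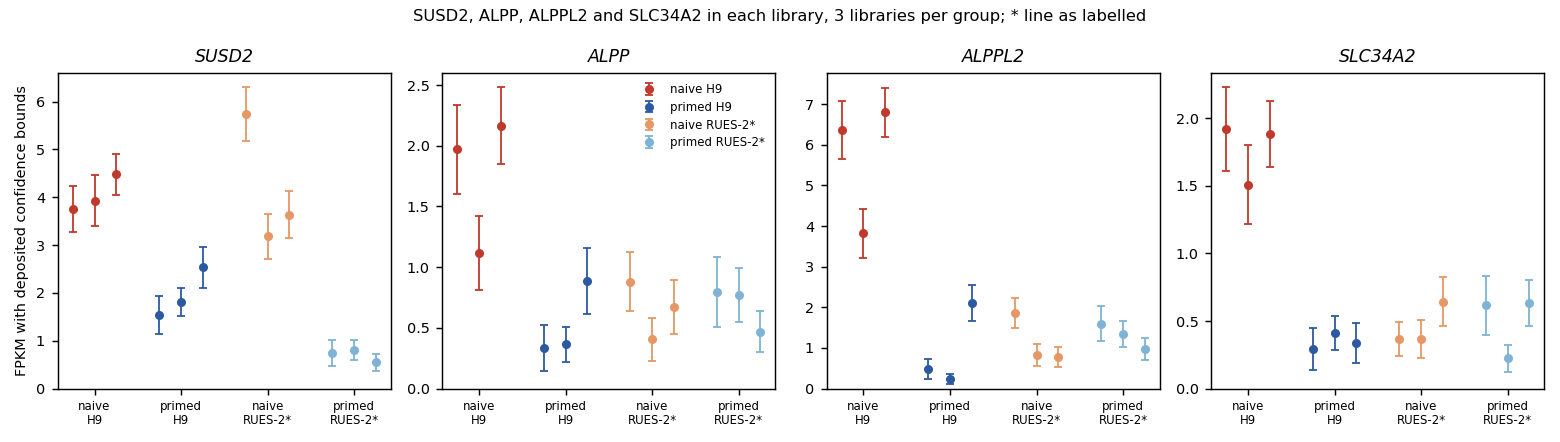
FPKM (y axes, linear, from 0) of SUSD2, ALPP, ALPPL2 and SLC34A2 in each of the 12 libraries, with the confidence bounds deposited by the authors as bars. For SUSD2 the naive libraries of both lines stand above the primed ones, while ALPP, ALPPL2 and SLC34A2 stand high in naive H9, where the lowest values are 1.12, 3.82 and 1.51 FPKM.

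Side by side, the lines shared the direction of 6 called antigen genes. THY1, CD24, B3GAT1, ALPL and PROM1 were called lower in both lines, beside 16.5% of all genes tested, and SUSD2 was called higher in both, beside 13.2%. The state comparisons share no library. In the test of the difference itself, RUES-2 minus H9, 5.7% of all genes were called, 3.77% as higher and 1.93% as lower, and 3 antigen genes were called lower, namely ALPPL2 (-1.99, SE 0.47, adjusted p = 0.0367), SLC34A2 (-1.06, SE 0.19, adjusted p = 0.0115) and ALPL (-0.55). The ALPPL2 call ended with a pseudocount of 0.1 (-3.13, adjusted p = 0.0579), with no filter (0.0504) and without any 1 of 9 of the 12 libraries, the exceptions being naive H9 replicate 2, primed H9 replicate 3 and naive RUES-2 replicate 1, with an adjusted p up to 0.0935, although its value stayed between -3.13 and -1.73 under every alternative that tested it. SUSD2 (0.80, adjusted p = 0.099), ALPP (-0.87, 0.0939) and CD24 (-0.40, 0.13) did not pass, and THY1 (-0.29, 0.767), PROM1 (-0.13, 0.852) and B3GAT1 (0.06, 0.938) differed by less than their SE. SLC34A2 and ALPP reached 1 FPKM in naive H9 libraries only and so entered this test through the group in which they were high. All 3 libraries that did not match their line label enter the difference, which has no value without them.

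Within the naive state, ALPP, ALPPL2 and SLC34A2 were lower in RUES-2 than in H9, beside 15.9% of all genes called, 11.2% as higher and 4.69% as lower. ALPPL2 averaged 1.16 ± 0.617 FPKM in naive RUES-2 and 5.66 ± 1.61 FPKM in naive H9 (log2 difference -1.63, adjusted p = 0.00915). SLC34A2 averaged 0.458 ± 0.159 FPKM in naive RUES-2 and 1.77 ± 0.227 FPKM in naive H9 (-0.93, adjusted p = 0.00151). ALPP averaged 0.653 ± 0.239 FPKM in naive RUES-2 and 1.75 ± 0.558 FPKM in naive H9 (-0.72, adjusted p = 0.0299), a call that ended without naive H9 replicate 1 (0.109) or 3 (0.107) or naive RUES-2 replicate 2 (0.111) or 3 (0.0587). ALPP and SLC34A2 reached 1 FPKM in naive H9 alone, the group through which they entered the test. CD24 (-0.32, adjusted p = 0.0509), THY1 (-0.95, 0.0776) and PODXL (-0.59, 0.105) missed the threshold, and SUSD2 differed by 0.01 (95% interval -0.39 to 0.41).

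Within the primed state, ALPL alone was called, at 86.4 ± 6.91 FPKM in RUES-2 and 61.9 ± 1.35 FPKM in H9 (0.47, SE 0.08, adjusted p = 0.0207), beside 1.82% of all genes, 1.34% as higher. That call ended without primed H9 replicate 1 (adjusted p = 0.0576) and when the primed libraries were fitted alone (0.189). SUSD2 averaged 0.698 ± 0.134 FPKM in primed RUES-2 and 1.96 ± 0.513 FPKM in primed H9 and missed the threshold (-0.79, adjusted p = 0.0575). The comparisons between lines share their libraries with the state comparisons.

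The ratio of a primed to a naive antigen within a library joins both differences. THY1 over SUSD2 was 4.89 to 5.85 in naive H9, against 51.9 to 68.6 in primed H9. The ratio was 1.72 to 4.56 in naive RUES-2, against 63.6 to 196 in primed RUES-2. The highest naive ratio, 5.85, and the lowest primed ratio, 51.9, both came from H9. CD24 over SUSD2 ran from 70.3 to 84.4 in naive H9 and from 315 to 564 in primed H9, and from 43.3 to 73.3 in naive RUES-2 and from 1132 to 1470 in primed RUES-2. The level of ALPPL2, taken by itself, separated naive H9 alone, since its values in naive RUES-2 lay within the range of the primed libraries. Ratios to ALPPL2 were not computed.

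**Figure D4:**
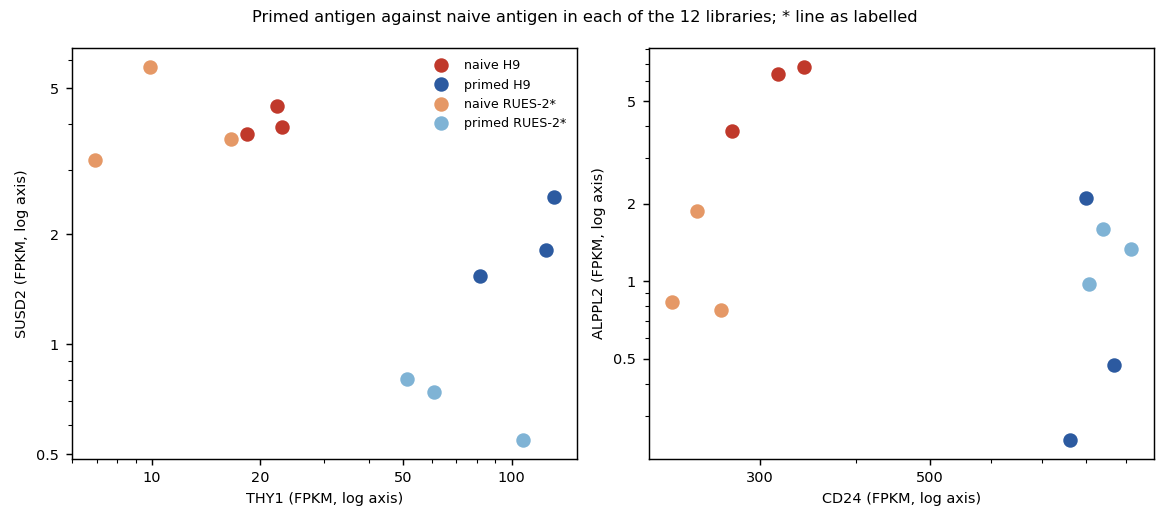
THY1 against SUSD2 (left) and CD24 against ALPPL2 (right) in the 12 libraries, FPKM on log axes, with the asterisk for line names as labelled. On the left all naive libraries lie at the upper left, with THY1 at or under 23.0 FPKM and SUSD2 at or above 3.18 FPKM, and on the right only the naive H9 libraries stand above 2.10 FPKM of ALPPL2.

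Over the 12 libraries the antigens fell into sets that varied together on the log2(FPKM + 1) scale, a description of points that share state, line and library. CD24 correlated with B3GAT1 at a Pearson r of 0.969, with PROM1 at 0.933 and with THY1 at 0.923. SUSD2 correlated with CD24 at -0.862 and with ALPL at -0.905. ALPP, ALPPL2 and SLC34A2 formed another set (0.971 for ALPP with ALPPL2, 0.848 for ALPPL2 with SLC34A2) with weak values against PODXL (0.0263, 0.0154 and -0.0888). The 3 most alike genes of each antigen were taken from the 10227 genes that averaged 5 FPKM or more in a group. For CD24 they were SEMA4D (0.994), PIF1 (0.993) and GPRIN2 (0.993), and for B3GAT1 MAGI1 (0.996), COL9A1 (0.993) and FAM111A (0.993). For THY1 they were LOC100289092 (0.977), N4BP3 (0.972) and CRIP3 (0.972), and for PROM1 CDO1 (0.971), LOC100294145 (0.970) and GGCT (0.967). PODXL was most like HCFC1R1 (0.974), HPS3 (0.957) and SYT6 (0.955), and ALPL most like VIL1 (0.968), RND1 (0.959) and CDIP1 (0.959). SUSD2 was most like BTG3 (0.957), SPAG9 (0.953) and GOLIM4 (0.944). All of these except the 3 of SUSD2 had higher means in the primed groups of both lines. SLC34A2 was most like BCAP31 (0.985), ATP6AP2 (0.968) and VAMP5 (0.957), and ALPPL2 most like IGBP1 (0.946), CCNA1 (0.941) and UXT (0.938). ALPP was most like ALPPL2 itself, UXT (0.932) and IGBP1 (0.922). BCAP31, ATP6AP2, IGBP1 and UXT all lie on chromosome X in the deposited tables, where 377 of the 10227 genes (3.69%) lie. They are 4 of the 28 distinct most alike genes, and IGBP1 and UXT were each named for both ALPP and ALPPL2. VAMP5 lies on chromosome 2 and CCNA1 on chromosome 13. BCAP31 averaged 161.5 FPKM in naive H9, 78.7 FPKM in primed H9, 84.0 FPKM in naive RUES-2 and 85.2 FPKM in primed RUES-2.

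Other surface genes of either state did not all move with the antigens above. Of 5 other naive surface genes tested, IL6ST and CD7 were higher and GPR64 lower in both lines. IL6ST, the signalling receptor subunit for LIF, averaged 14 ± 4.58 FPKM in naive H9 and 1.68 ± 0.351 FPKM in primed H9 (2.44, adjusted p = 1.12e-05), with a log2 difference of 2.20 in RUES-2 (adjusted p = 2.06e-05). Of 8 other primed surface genes 4 were lower and 4 higher in naive cells of each line. Beside both lists, 44.3% of all genes were called in H9 and 46.8% in RUES-2. NLGN4X, a neuroligin, averaged 1.46 ± 0.126 FPKM in naive H9 and 39.1 ± 8.99 FPKM in primed H9 (-4.01, adjusted p = 2.17e-07), and PTPRZ1, a receptor phosphatase, 7.94 ± 1.21 FPKM in naive H9 and 56.1 ± 18.9 FPKM in primed H9 (-2.64, adjusted p = 7.85e-06). Both were lower in RUES-2 too (-3.86 and -2.34). NCAM1 and EPHA7, listed as primed, were higher in naive H9 (1.19, adjusted p = 0.000473, and 1.44, adjusted p = 0.000175).

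Among 11 surface genes used for both states, 0 were higher and 6 lower in naive H9, and 2 were higher and 6 lower in naive RUES-2. Beside them, 20.4% of all genes tested were higher and 23.9% lower in naive H9, and 23.1% were higher and 23.7% lower in naive RUES-2. CDH1, the adhesion protein E-cadherin, averaged 3.34 ± 0.878 FPKM in naive H9 and 53.7 ± 22.9 FPKM in primed H9 (-3.59, adjusted p = 1.01e-05), and 10.1 ± 3.39 FPKM in naive RUES-2 and 78.7 ± 6.56 FPKM in primed RUES-2 (-2.88, adjusted p = 3.78e-05). EPCAM averaged 43.7 ± 3.49 FPKM in naive H9 and 114 ± 14.2 FPKM in primed H9 (-1.36, adjusted p = 0.00134), with -1.79 in RUES-2 (adjusted p = 0.000224). CDH3 (-1.81, adjusted p = 6.45e-05) and KIT (-0.96, 0.00636) were lower in naive H9 as well. The median log2 difference of these genes was -0.50 in H9 and -0.69 in RUES-2, against -0.01 and 0.01 over all genes tested. Of the genes that assemble the GPI anchor, which THY1, CD24, ALPL, ALPP and ALPPL2 all carry, 26 were tested. In naive H9 9 were higher and 6 lower, and in naive RUES-2 8 were higher and 4 lower. Over all genes tested 20.4% were higher and 23.9% lower in H9, and 23.1% were higher and 23.7% lower in RUES-2. Beside these shares the counts of the list are not read as a result. PIGA, of the first step of that assembly, averaged 5.62 ± 0.669 FPKM in naive H9 and 2.85 ± 0.727 FPKM in primed H9 (0.80, adjusted p = 0.00207), and GPLD1, a phospholipase that cuts the anchor, was lower in the naive state of H9 (-0.39, adjusted p = 0.0451) and RUES-2 (-0.59, adjusted p = 0.00574). Of the same list PIGW (0.94, adjusted p = 0.00814), PIGH (0.92, 0.00107) and DPM1 (0.65, 0.000139) were higher in naive H9 too. Of 12 tested enzymes of glycolipid antigens, 1 was higher and 4 lower in naive H9, and 3 were higher and 5 lower in naive RUES-2, beside 44.3% of all genes called in H9 and 46.8% in RUES-2, so that the H9 count is near the background. B3GALT5, a galactosyltransferase of this list, averaged 3.01 ± 0.824 FPKM in naive H9 and 4.79 ± 0.641 FPKM in primed H9 (-0.55, adjusted p = 0.0133), and ST3GAL1, a sialyltransferase, 3.47 ± 1.27 FPKM in naive H9 and 1.21 ± 0.324 FPKM in primed H9 (0.98, adjusted p = 0.00254). FUT1 (-0.76, adjusted p = 0.00171) and B4GALT6 (-0.65, 0.0039) were lower in naive H9.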

How the data were processed

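Poly(A) RNA-seq covered 12 libraries. The submitters' processing notes name the genome build hg19, TopHat2 2.1.1 and bcl2fastq 2.17.1.14. The program behind the FPKM values, its annotation and the strand of the libraries were not given in the sources used here. Per the file headers, the authors deposited FPKM with confidence bounds for 25278 entries per library, while the design text speaks of RPKM. Of 23615 symbols, 554 had several loci, and of these the locus of highest mean was used. The antigen genes and all lists were chosen with earlier results of these data known. Coordinates are 1-based on hg19 as deposited unless GRCh38 is named. The 14429 genes that reached 1 FPKM in 3 libraries or more entered a linear model of log2(FPKM + 1) in limma 3.58.1 (R 4.3.3), two-sided, with a mean per group over all 12 libraries, a variance trend and Benjamini-Hochberg adjustment over all genes, and the model was tested on simulated data. A log2 difference on this scale understates the change of low genes. Intervals are 95% intervals of single genes. All 10 antigen genes are named, with the 3 genes most correlated with each and, of each list, up to 4 called members with the largest change in H9. Alternatives were the pseudocount, the filter, 2 scalings, no variance trend, summed loci, a replicate block, fits of the compared groups alone, the libraries that did not match their line label left out, each library left out in turn and, chosen after seeing the data, ALPP and ALPPL2 added. No 2 libraries held identical values. Promoter sequences were read from RefSeq (GRCh38.p14), and identities were computed on GENCODE transcripts of GRCh38 with Biopython 1.88, and plots were made with Python 3.11.15, pandas 2.3.3 and matplotlib 3.10.9.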

Additional observations from a re-analysis of the deposited data

Results flagged for a closer look

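The state difference (naive minus primed) of 3 antigen genes differed between the line labels in limma's test of that difference, RUES-2 minus H9, with an adjusted p under 0.05 over all genes. ALPPL2 differed by -1.99 on the log2 scale, with a state difference of -0.12 in RUES-2 and 1.87 in H9. The ALPPL2 call held under only 9 of 20 alternatives, with an adjusted p up to 0.0935 in limma. SLC34A2 differed by -1.06, with -0.03 in RUES-2 and 1.04 in H9, but it reached 1 FPKM in naive H9 only and entered the test through that group. ALPL differed by -0.55, with -0.82 in RUES-2 and -0.27 in H9, and its call ended without naive H9 replicate 2 (-0.51, adjusted p = 0.0571). All 3 values rest on the 3 libraries that did not match their line label, so state, line and source of the cells cannot be told apart in them.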

How the results depend on the processing

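Of 1050 values of single antigen genes under the alternatives, 984 kept their direction and their side of the threshold, 21 lost a call, 15 gained one and 30 changed sign. All 30 were values that were not called. With a pseudocount of 0.1 the difference between the lines was -0.19 for B3GAT1, which was 0.06. With quantile normalization it was -0.089 for B3GAT1, the state difference in RUES-2 was 0.13 for ALPP, 0.017 for ALPPL2 and 0.089 for SLC34A2, and the naive line difference was -0.087 for SUSD2, which was -0.023 after scaling to the same median ratio. With each library left out in turn, values near 0 crossed it: in RUES-2 ALPP ran from -0.13 to 0.085 and SLC34A2 from -0.16 to 0.046, the difference between lines ran from -0.12 to 0.26 for B3GAT1, from -0.30 to 0.13 for PROM1 and from -0.60 to 0.021 for THY1, the primed line difference from -0.27 to 0.13 for PODXL and from -0.082 to 0.11 for PROM1, and the naive line difference from -0.30 to 0.12 for PROM1 and from -0.20 to 0.15 for SUSD2. The antigen genes called between primed groups numbered 2 with a pseudocount of 0.1 or quantile normalization and 0 with the compared groups alone. With a filter of 5 FPKM, which ALPP, ALPPL2, SLC34A2 and SUSD2 do not pass, 5 antigen genes were called in H9, 1 for the difference between lines and 0 between naive groups, and 424, 102 and 1469 genes in all were called for the difference between lines, between primed and between naive groups. Between primed groups 96 genes were called without the libraries that did not match and 27 with the compared groups alone. The deviations of same-numbered libraries correlated at r between -0.0537 and 0.136, and in 13 of 24 checks a library was most like the one of its own number, where an even share of 3 candidates is 8. This is a hint of shared deviation, but no label ties the numbers to a shared source and the correlations did not all exceed 0.1, so the numbers were not taken as pairs. With the replicate block 5 antigen genes were called between naive groups and 170 genes in all between primed groups, and PODXL was called in H9 (adjusted p = 0.00686). Leaving out 1 library gave 8 to 10 antigen genes in H9, 7 in RUES-2, 2 to 3 for the difference between lines, 2 to 4 between naive and 0 to 2 between primed groups. Over all genes it gave 5050 to 6684 in H9, 5572 to 7280 in RUES-2, 408 to 920 for the difference, 1213 to 2811 between naive and 61 to 385 between primed groups. SUSD2 gained a call between primed groups with a pseudocount of 0.1, with quantile normalization and without naive RUES-2 replicate 1, and with a pseudocount of 0.1 it gained one for the difference between lines (1.36, adjusted p = 0.0463). Leaving out the libraries that did not match gives no value for RUES-2, the difference or the naive groups. The cause of these changes was not tested. The depth of the libraries is not known, and for genes near 1 FPKM the deposited bounds limit the precision.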

Other observations

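Of 6 mesendoderm markers tested, 5 were higher and 0 lower in naive cells, in H9 and in RUES-2 alike. Over all genes 20.4% were higher in H9 and 23.1% in RUES-2. HAND1, 1 of the 5, is also in the trophoblast list. MESP1, another of the 5, reached 1 FPKM in 6 libraries only, none of them primed H9, and so entered the test through groups in which it was high. GSC did not pass the test, with means of 1.11 FPKM in naive H9 and 2.9 FPKM in primed H9. In RUES-2 GSC averaged 4.4 FPKM in naive and 3.74 FPKM in primed libraries. MIXL1, a transcription factor of the primitive streak, averaged 55.6 ± 4.50 FPKM in naive H9 and 8.87 ± 8.50 FPKM in primed H9 (log2 difference 2.85, adjusted p = 0.00323 in limma), and T (brachyury) averaged 13.4 ± 0.977 FPKM in naive H9 and 1.09 ± 1.04 FPKM in primed H9 (2.91, adjusted p = 0.000149). Of 9 neural progenitor markers 5 were tested, and 3 were higher and 0 lower in each line. TUBB3, a neuronal tubulin, averaged 174 ± 9.06 FPKM in naive H9 and 87.0 ± 20.6 FPKM in primed H9 (1.02, adjusted p = 0.00548). Among the naive state markers, KHDC3L averaged 9.48 ± 2.50 FPKM in naive H9 and 0.0824 ± 0.107 FPKM in primed H9, against 0.199 ± 0.0929 FPKM in naive RUES-2 and 0.0682 ± 0.118 FPKM in primed RUES-2, and the difference between the lines was called (-3.08, adjusted p = 0.000187), although KHDC3L reached 1 FPKM in 3 libraries only, those of naive H9, and so entered the test through the group in which it was high. Of the other listed markers, those called in H9 with limma included, with their log2 differences, TDGF1 (-1.73), DPPA4 (-1.19), L1TD1 (-1.16) and POU5F1 (-1.05) among pluripotent cell markers, DNMT3L (3.42), FGF4 (2.29) and TFAP2C (1.93) among naive markers, and DUSP6 (-3.64) and OTX2 (-2.43) among primed markers. Among fibroblast markers they included COL3A1 (5.74), LUM (4.80), COL6A3 (2.87) and DCN (2.80), and among the rest HAND1 (4.27), CDX2 (2.98), MAP2 (2.13), EOMES (1.94), NES (0.59) and KRT7 (-2.0). All values of RUES-2 are as labelled.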
